A study of Mus musculus with 6 samples.

Results

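The histone genes of the mouse ovary were examined at embryonic day E15.5. Members were taken by gene name, as every gene whose symbol begins with Hist1h, Hist2h, Hist3h, Hist4h, H1f, H2af or H3f. The rule found 86 of the 35976 named genes in the data, with 131 of the 114412 transcripts. Of these 86, 69 Hist genes are called replication-dependent (RD) here and 17 genes named H1f, H2af or H3f are called variants.

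Histones are the proteins around which DNA is wound. Core histones H2A, H2B, H3 and H4 form the nucleosome, and linker histone H1 binds the DNA between nucleosomes. RD genes lie in clusters, lack introns as a rule and are transcribed mainly in S phase, when new DNA needs new nucleosomes. Their mRNAs usually end in a conserved stem-loop rather than in a poly(A) tail, and the stem-loop is bound by SLBP. Variant genes stand alone, are mostly polyadenylated and are transcribed through the cell cycle, and their proteins replace the canonical histones at particular sites. In the fetal ovary, germ cells stop dividing and enter meiosis at about this age, while somatic cells continue to divide.

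All mice were C57BL/6J, given as C57Bl6j in the labels. Pregnant females received panobinostat (PB), an inhibitor of histone deacetylases, at 5 mg/kg from E6.5 to E15.5, and the control females received vehicle only. The annotation states daily dosing, whereas the methods of the study state dosing on alternating days, with DMSO and water for the control females. Each group had 3 pools of ovaries, named control 1 to 3 and PB 1 to 3. The annotation gives 4 ovaries per pool in one place and 6 to 8 in another, and its design text calls the control libraries exposed although their names and treatment labels say control. The RNA is labelled as poly(A) RNA, so an mRNA without a poly(A) tail is measured only as far as it passed that selection. Total counts ranged from 97165644 to 125985399 per pool, and histone genes held 0.231% to 0.295% of them. Whole ovaries were measured, so fewer cells of a type and less RNA per cell cannot be told apart.

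The stem-loop sequences are shown because they set the RD genes apart from the variants in the reference. The histone stem-loop, a hairpin of 16 bases, was searched in the protein-coding transcripts of GENCODE M21 on GRCm38, the same build as mm10. It was found in 46 of the 67 RD genes with such a transcript and in 1 of the 15 variants, against 0.311% of all 21877 protein-coding genes. Of the 52 RD genes whose model continues for at least 30 bases past the last coding base, 46 carried it. Most of the others had a model that stops at the end of the coding sequence, so these letters could not be there. In the sequences below the hairpin is in capitals with up to 5 bases on each side, written as DNA from 5′ to 3′.
Hist1h1e: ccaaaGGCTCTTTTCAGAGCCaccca
Hist1h3c: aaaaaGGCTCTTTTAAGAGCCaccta
Hist1h3g: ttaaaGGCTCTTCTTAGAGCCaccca
Hist1h4a: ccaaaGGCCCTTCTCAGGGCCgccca
Hist1h4d: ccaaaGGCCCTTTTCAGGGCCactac
Hist3h2a: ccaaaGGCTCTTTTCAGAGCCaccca
H2afx: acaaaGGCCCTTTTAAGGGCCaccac

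The first stem of the hairpin read GGCTC in all 34 H1, H2A, H2B and H3 genes that carried it, namely 4, 11, 10 and 9 genes. It read GGCCC in 10 H4 genes and GGTCC in 2. H2afx, the H2A variant that is phosphorylated at DNA breaks, was the only variant with the hairpin, and its stem was of the H4 form. A poly(A) signal, AATAAA or ATTAAA, lay in the last 40 bases of a model in 17 RD genes, 14 of which also held the hairpin, and in 9 variants.

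Promoters were read from RefSeq on GRCm38.p6 for the 62 RD genes and 14 variants that matched, since the RD genes varied together between pools. In the 250 bases before the start, CCAAT or its reverse ATTGG was present in 82.3% of RD promoters, 57.1% of variant promoters and 33.8% of all 32851 promoters. TATAAA on the strand of the gene was present in 38.7%, 7.14% and 7.59%. Motifs are in capitals in the 3 upstream sequences below. The first is from Hist1h3c, the RD gene with the smallest p. The second lies between Hist1h2ag and Hist1h2bj, which are read in opposite directions from the same interval. The third is from H3f3b, the variant with the highest level and the only 1 of the 14 variants with TATAAA. Neither of the RD sequences shown holds TATAAA, so the examples do not follow the class shares for this motif.
Hist1h3c, chr13:23745522-23745771, minus strand: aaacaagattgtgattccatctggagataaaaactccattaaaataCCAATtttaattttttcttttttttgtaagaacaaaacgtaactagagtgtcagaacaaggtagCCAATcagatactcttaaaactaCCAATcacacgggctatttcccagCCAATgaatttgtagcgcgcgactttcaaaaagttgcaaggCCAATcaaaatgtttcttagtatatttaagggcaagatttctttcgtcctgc
Hist1h2bj, chr13:22042948-22043197, plus strand: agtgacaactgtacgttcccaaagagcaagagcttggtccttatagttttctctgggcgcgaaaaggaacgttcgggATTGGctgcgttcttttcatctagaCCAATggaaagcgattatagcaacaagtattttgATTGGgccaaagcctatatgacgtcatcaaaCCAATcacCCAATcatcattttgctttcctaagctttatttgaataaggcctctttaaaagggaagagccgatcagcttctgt
H3f3b, chr11:116024505-116024754, minus strand: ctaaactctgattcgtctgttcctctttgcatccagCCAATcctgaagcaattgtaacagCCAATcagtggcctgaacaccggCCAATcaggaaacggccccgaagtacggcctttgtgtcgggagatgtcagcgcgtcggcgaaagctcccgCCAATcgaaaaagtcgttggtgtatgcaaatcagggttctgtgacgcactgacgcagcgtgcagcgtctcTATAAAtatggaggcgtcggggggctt

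Among the genes with a matched promoter, such head-to-head starts, at most 1000 bases apart, joined 20 genes in 10 pairs. Each of these pairs was 1 H2A gene and 1 H2B gene, with 164 to 281 bases between the starts. Genes without a matched promoter were not searched, and some of them also lie head to head. Hist1h2bh starts at chr13:23543444 on the minus strand, and the H3 gene Hist1h3f starts at 23544052 on the plus strand.

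Levels were compared between genes as CPM, the counts scaled to a common library size, divided by transcript length in kilobases. The median over the 69 RD genes was 15.8 CPM per kilobase, with a range of 0.33 to 47.4. The median over the 17 variants was 44.1, and they ranged from 0 to 370.1. The RD genes with the highest levels on this scale were Hist1h4d at 47.4 and Hist1h2ap at 46.4, whereas the variants H3f3b, H3f3a and H2afz reached 370.1, 270.0 and 183. Variants thus included both the highest and the lowest measured levels among the histone genes. Because the RNA is labelled as poly(A) RNA, the classes are compared in what passed that selection, not in total mRNA.

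**Figure D1:**
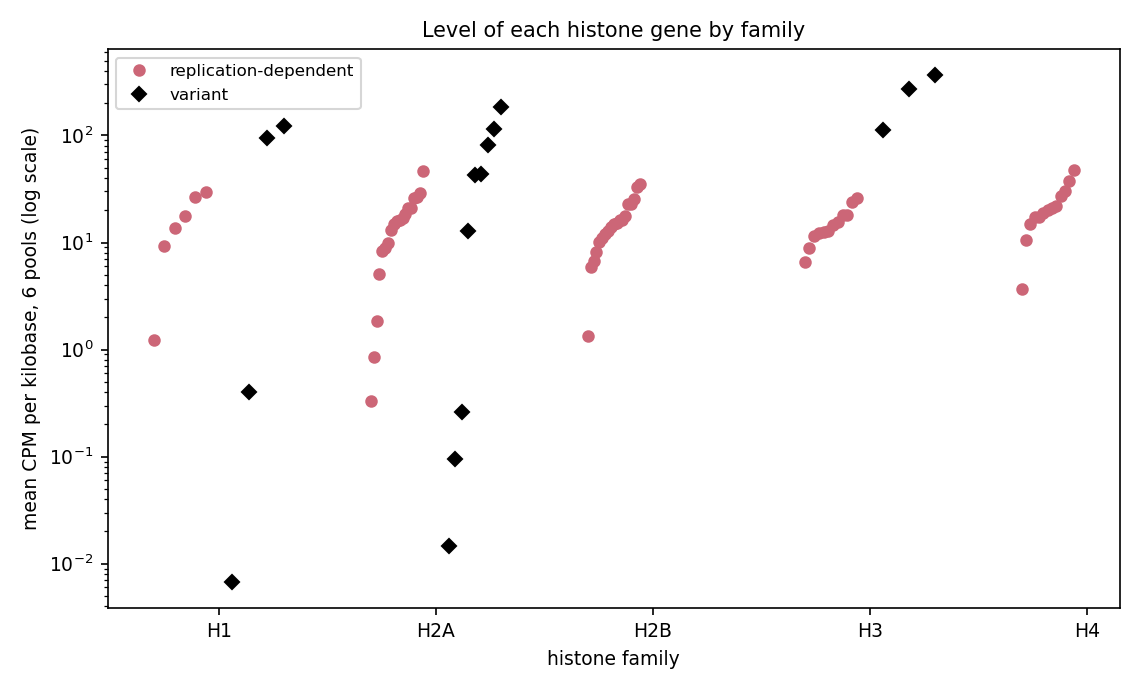
Mean level of each histone gene over the 6 pools, in CPM per kilobase on a log scale, in RNA labelled as poly(A) RNA. Genes are set by histone family, with RD genes as circles and variants as diamonds. H2afb2, listed at 0, is not drawn. The H3 variants lie between 112 and 370.1, above every RD H3 gene, of which the highest was at 26.3.

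Summed over the genes of a family, RD H2A and RD H2B stood at 301 and 302 CPM per kilobase on average, RD H4 at 288, RD H3 at 182 and RD H1 at 98.0. Variant sums were 479 for H2A, 752 for H3 and 220 for H1 (219.6). Members of a family share sequence, and reads from one can be counted for another. Of the 69 RD genes, 59 shared at least 1 window of 100 bases with another histone gene in GENCODE, and 24 shared at least 50% of their windows. Hist2h2aa2 shared all of them, mainly with Hist2h2aa1. The values of such single genes are therefore uncertain, and the sums are less affected by that division.

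No histone gene was called between PB and control. Most RD genes nevertheless had somewhat lower mean levels in PB, whereas variants were on both sides of 0. The RD sum was 599 CPM in control 1, 777 in control 2 and 612 in control 3, against 505 in PB 1, 686 in PB 2 and 466 in PB 3. The means were 663 ± 98.9 CPM in control and 552 ± 118 CPM in PB (SD, n = 3), a difference of -16.7%. PB 1 and PB 3 lay below all control pools and PB 2 lay above control 1 and control 3, so the groups overlapped. The variant sum was 2269, 1996 and 2225 CPM in control and 2127, 2337 and 1925 CPM in PB, with means of 2163 ± 147 and 2129 ± 206.

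In log2, the ratio of the RD sum to the variant sum was -1.92, -1.36 and -1.86 in control and -2.07, -1.77 and -2.05 in PB. The means differed by -0.25. This difference was smaller than the SD of 0.31 among the control pools. RD genes made up 20.9%, 28.0% and 21.6% of histone CPM in control and 19.2%, 22.7% and 19.5% in PB.

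**Figure D2:**
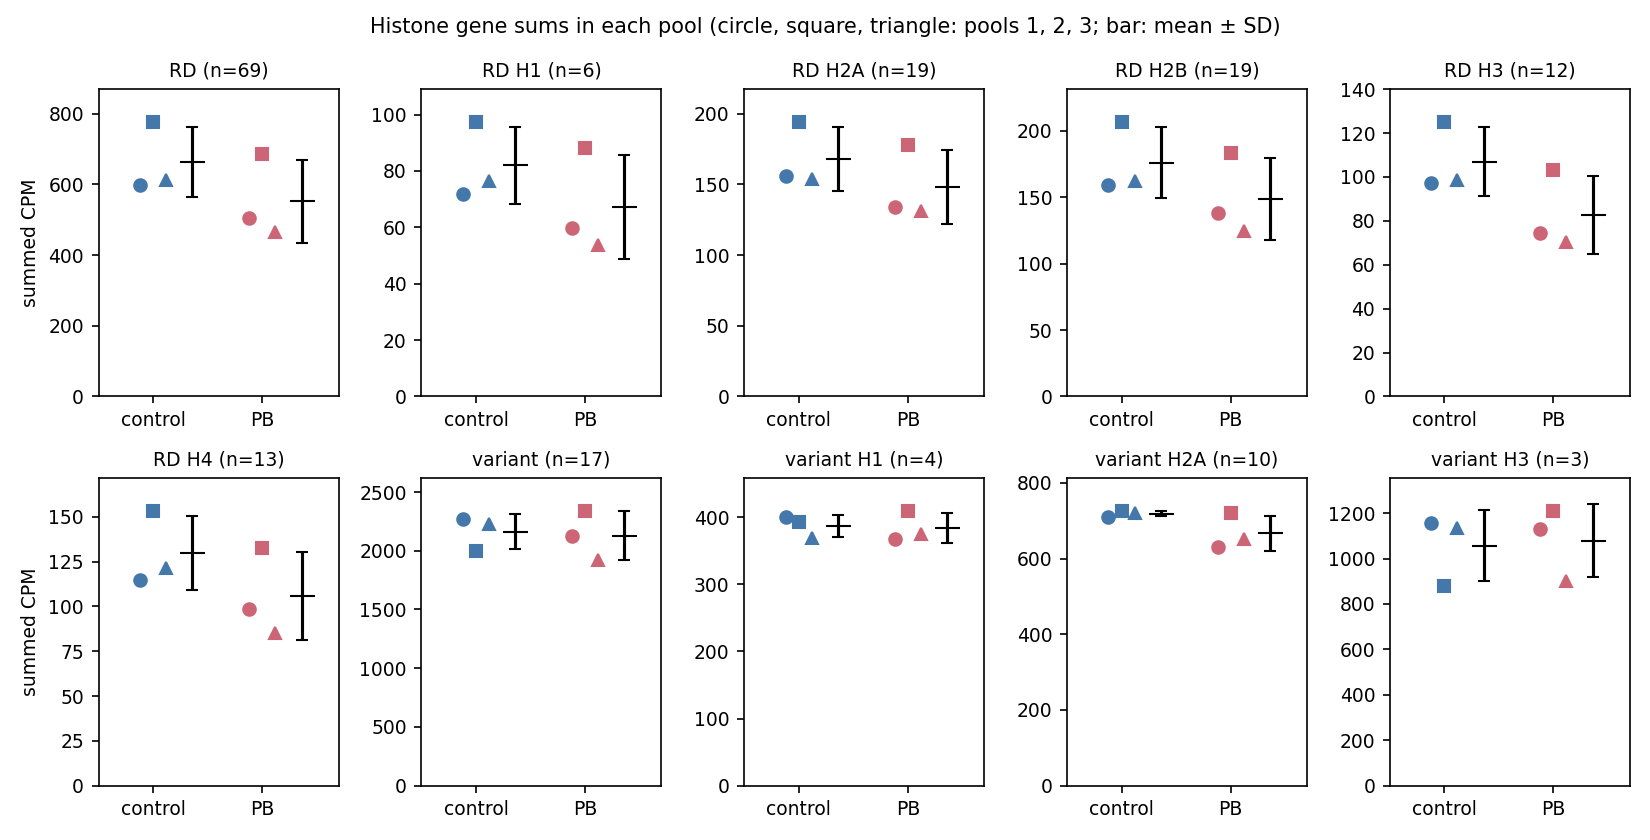
Summed CPM of RD and variant histone genes and of each family in each pool, with control in blue, PB in red and the mean ± SD beside the points. In every RD family the square, pool 2, is the highest of its group, and the RD sum runs from 599 to 777 in control and from 466 to 686 in PB.

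All 69 RD genes and 14 of the 17 variants passed the filter on low counts. H1foo, H2afb2 and H2afb3 did not. The criteria for a call were a false discovery rate (FDR) of at most 0.05 and a 2-fold difference or more in edgeR's quasi-likelihood test, adjusted over all 19437 genes tested, of which 3 (0.0154%) were called. Of the histone genes, 0 were called, and the smallest FDR was 0.888. DESeq2 also called 0 histone genes, against 0.0539% of all genes. At an unadjusted p under 0.05, 6 of 69 RD genes were lower in PB against 2.43% of all genes, and 0 were higher against 2.03%. DESeq2 had 12 RD genes lower at that level, against 2.04% of all genes. Of the variants, 0 passed in either direction. The fitted log2 fold change was below 0 in 66 of 69 RD genes and in 7 of 14 variants, against 49.3% of all genes. The median was -0.28 for RD genes, -0.003 for variants and 0.002 for all genes. RD genes shared pools and sequence, so their number does not measure independent evidence.

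Groups without overlap were about as frequent among RD genes as in the background. Every PB pool was below every control pool in 5 of 69 RD genes, or 7.25%, and in 5.62% of all genes. The opposite was seen in 0 RD genes and in 5.1% of all genes. Among variants, 1 of 14 had all PB pools below the control pools and 0 had them above.

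The RD genes varied together between pools of the same group. Control 2 was the highest control pool in 64 of 69 RD genes and PB 2 the highest PB pool in 65. Over all genes these pools were the highest in 35.9% and 40.5%. PB 1 was below all 3 control pools in 62 RD genes and PB 3 in 58, but PB 2 in 7. PB 2 exceeded both control 1 and control 3 in 49 RD genes. PB 1 and PB 3 were both below control 1 and control 3 in 56 of 69 RD genes, against 21.9% of all genes, and in 7 of 14 variants. When both pools 2 were left out, the RD median was -0.36 and 39 RD genes were lower at an unadjusted p under 0.05, against 4.47% of all genes, with 0 called. Without PB 2 alone the median was -0.50, with 46 such genes against 4.9% of all genes. Without control 2 it was -0.15, with 3 such genes against 2.08%. Without PB 1 or PB 3 there were also 3 such genes each, but the share of all genes was not computed for these settings. That both pools 2 were left out was decided after the values had been seen. With the replicate number as a block, 37 RD genes were lower at an unadjusted p under 0.05, against 3.32% of all genes. Whether the numbers pair the pools is not known.

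**Figure D3:**
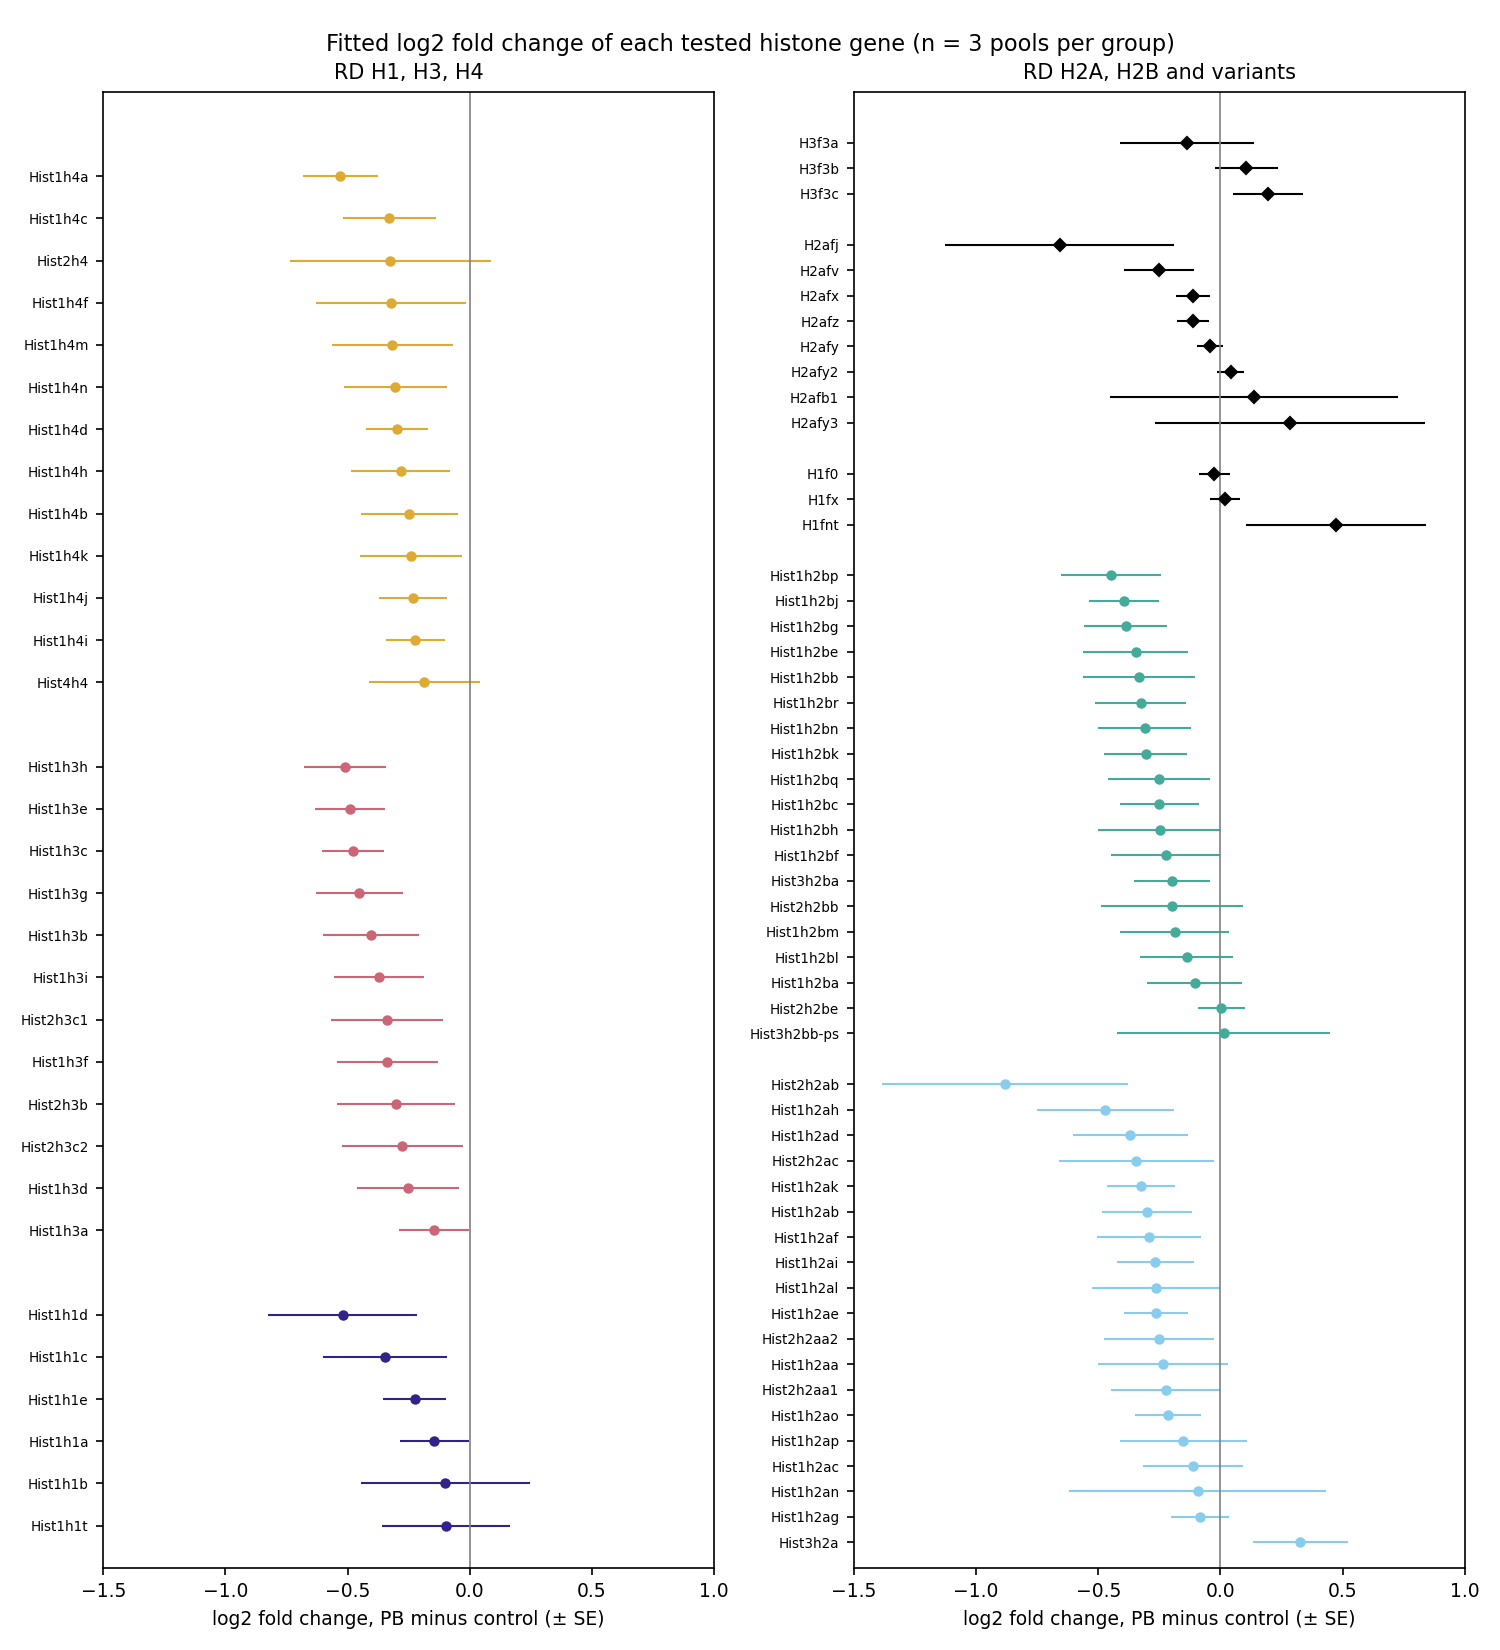
Fitted log2 fold change of each tested histone gene, PB minus control, with its standard error, for RD genes by family (coloured circles) and variants (black diamonds). Of the RD genes, 66 of 69 lie left of 0, with quartiles of -0.34 and -0.21, and the variants lie on both sides.

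The RD gene with the highest mean CPM was the linker histone gene Hist1h1e. It was at 23.0, 27.1 and 24.7 CPM in control and 19.4, 25.4 and 19.2 in PB, with a log2 fold change of -0.23 ± 0.13 (SE). Hist1h1c was at 18.4, 27.4 and 19.2 CPM in control and 14.8, 23.2 and 12.98 in PB (-0.35 ± 0.25). In both genes PB 2 exceeded at least 1 control pool. All 6 RD H1 genes had a log2 fold change below 0, with a median of -0.19. Hist1h1t, the H1 of meiotic spermatocytes, was near 1 CPM, at 1.1197, 0.806 and 0.903 in control and 0.625, 0.998 and 1.02 in PB.

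Of the H2A genes, 18 of 19 were below 0 (median -0.26) and 0 had a p under 0.05. Hist1h2ap was the highest in CPM, at 15.9, 27.6 and 22.7 in control and 14.4, 25.4 and 19.9 in PB (-0.15 ± 0.26). It shared 92.2% of its windows with other histone genes, so its value is uncertain. Without control 2 or without PB 1 its sign turned. Hist1h2aa, an H2A of male germ cells, was at 0.835, 0.832 and 1.02 CPM in control and 0.766, 0.538 and 0.972 in PB. Its neighbour Hist1h2ba, the matching H2B, was at 2.54, 3.66 and 2.73 in control and 2.77, 2.34 and 3.20 in PB. These 2 genes did not share the order of pools seen in most RD genes, since PB 2 was the lowest PB pool in both.

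Of the 19 H2B genes, 17 were below 0 (median -0.25), and 1 had a p under 0.05. This was Hist1h2bj, at 8.11, 9.59 and 8.23 CPM in control and 6.10, 7.82 and 5.81 in PB (-0.40 ± 0.14, unadjusted p = 0.029, FDR 0.888, edgeR). Hist1h2ag, which starts from the opposite end of the interval shown above, was at 7.31, 9.65 and 8.24 in control and 7.81, 8.29 and 7.66 in PB (-0.09 ± 0.12). Of its counts, 19.3% to 31.7% lay on MSTRG.4583.2, an assembled form that also spans Hist1h2ah. The annotated form of Hist1h2ag alone had a log2 fold change of -0.21 ± 0.22. Hist1h2bc was at 15.2, 20.3 and 14.4 CPM in control and 12.5, 16.4 and 13.1 in PB (-0.25 ± 0.16). Hist2h2be, whose model carries a poly(A) signal and no match to the hairpin, was at 21.8, 23.1 and 19.6 CPM in control and 20.9, 24.0 and 19.8 in PB. Its groups overlapped almost fully, with a log2 fold change of 0.004 ± 0.10. Hist3h2bb-ps, a pseudogene, was at 0.519, 0.695 and 0.648 CPM in control and 0.575, 1.008 and 0.301 in PB, so that the PB pools spanned all control pools (0.01 ± 0.44).

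H3 held 4 of the 6 RD genes with a p under 0.05, and all 12 were below 0 with a median of -0.36. Hist1h3c was at 12.3, 15.7 and 12.1 CPM in control and 8.97, 10.5 and 9.26 in PB. These gene sums did not overlap between groups, and the log2 fold change was -0.48 ± 0.13 (unadjusted p = 0.0076, FDR 0.888, edgeR). Part of the sums lay on assembled forms that reach from Hist1h3e to Hist1h3c, with 190 counts of MSTRG.4605.3 in control 3. The annotated form NM_175653.2 had 1147, 1675 and 853 counts in control and 869, 1010 and 1028 in PB. Those counts overlapped, with a log2 fold change of -0.35 ± 0.22. Hist1h3e was at 13.9, 16.1 and 13.3 CPM in control and 9.91, 12.3 and 8.69 in PB, without overlap (-0.49 ± 0.14). The other 2 were Hist1h3h (-0.51 ± 0.17) and Hist1h3g (-0.45 ± 0.18). Together with Hist1h2bj, these 2 genes fell outside the rule for names and were chosen after their values were seen. Their FDR was that of all the RD genes with the smallest p, so none was called.

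All 13 H4 genes were below 0, with a median of -0.30, and 1 had a p under 0.05. Hist1h4a was at 8.89, 10.03 and 9.03 CPM in control and 6.62, 7.603 and 5.14 in PB, without overlap (-0.53 ± 0.15, unadjusted p = 0.012, FDR 0.888, edgeR). Hist1h4d, the highest H4 gene, was at 17.4, 22.2 and 18.1 in control and 15.2, 17.7 and 14.0 in PB (-0.30 ± 0.13), and PB 2 exceeded control 1. By cluster, all 55 Hist1 genes on chromosome 13 and 9 of 10 Hist2 genes on chromosome 3 were below 0. So were 1 of 3 Hist3 genes on chromosome 11, Hist3h2ba, and the single Hist4 gene on chromosome 6. The medians were -0.29 for Hist1, -0.29 for Hist2 and 0.01 for Hist3. The direction of the Hist3 sum depended on the scale. In CPM it was 15.1% higher in PB. In CPM per kilobase it was 42.6, 45.6 and 41.3 in control and 37.3, 35.98 and 26.2 in PB, without overlap. Most counts of Hist3h2a in PB 2 and PB 3 lay on a longer assembled form, described below, so the Hist3 direction is uncertain.

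The medians were near each other in RD genes grouped by the ends of their models, where a feature in any model of a gene was counted. RD genes with the hairpin and no poly(A) signal had a median of -0.30 over 32 genes. Those with both had -0.27 over 14 genes, and those with neither in the model had -0.26 over 18 genes. The 3 with a poly(A) signal and no hairpin, Hist1h2bq, Hist1h2br and Hist2h2be, had values of -0.25, -0.33 and 0.004. In Hist1h2bq and Hist1h2br the signal is in a longer model only. The longer annotated transcripts held 2.02% and 1.34% of the counts of these genes, so their values mainly measure the short forms.

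Of the variants, H3f3a and H3f3b encode the replacement histone H3.3 and were the highest histone genes in CPM. H3f3b was at 689, 494 and 679 CPM in control and 660, 705 and 640 in PB (0.11 ± 0.13). Control 2 was the low pool, and without it the value was -0.04. H3f3a was at 409, 337 and 388 in control and 398, 434 and 200.04 in PB. PB 3 alone lay below the others, and without it the log2 fold change went from -0.14 ± 0.27 to 0.14. H3f3c, which shares 53.8% of its windows with other histone genes, most of them with H3f3a, was at 59.8, 46.7 and 67.8 in control and 70.3, 70.0 and 59.4 in PB (0.20 ± 0.14). Its value was 0.058 without control 2 and 0.32 without control 3.

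Among the H2A variants, H2afz (H2A.Z) was at 196, 214 and 196 CPM in control and 178, 201 and 181 in PB (-0.11 ± 0.06). H2afv, the other H2A.Z gene, was at 67.0, 66.3 and 94.6 in control and 62.5, 67.1 and 61.7 in PB (-0.25 ± 0.14), with control 3 apart from the other 5 pools and a value of -0.07 without it. H2afx was at 163, 172 and 150.5 in control and 143, 161 and 144 in PB (-0.11 ± 0.07). Each of these groups overlapped in at least 1 pool. H2afy, a macroH2A gene, was at 169, 156 and 169 in control and 154, 168 and 157 in PB. H2afy2, the second macroH2A gene, was at 85.9, 86.8 and 83.1 in control and 85.4, 93.5 and 84.6 in PB. Their log2 fold changes were -0.04 ± 0.05 and 0.04 ± 0.06.

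H2afj had no overlap between the groups, but its value depended on single pools. It was at 28.9, 29.9 and 27.7 CPM in control and 6.24, 27.1 and 21.4 in PB. The log2 fold change was -0.66 ± 0.47 over all pools, -0.25 without PB 1 and -1.06 without PB 2.

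H1f0, the linker histone of cells that have left the cell cycle, was at 294, 293 and 272 CPM in control and 272, 304 and 269 in PB (-0.03 ± 0.06). H1fx was at 107, 98.8 and 96.5 in control and 95.7, 105 and 105 in PB (0.02 ± 0.06). In both genes the groups overlapped. H1fnt, the linker histone of spermatids, was near the low end at 0.387, 0.506 and 0.457 in control and 0.534, 0.391 and 0.946 in PB (0.47 ± 0.37). PB 3 was the highest pool, and the log2 fold change was 0.039 without it and 0.72 without PB 2. H1foo, the oocyte linker histone, had 7 counts in control 1 and 0 in the other 5 pools. Of the remaining low variants, H2afb1 had 24, 7 and 10 counts in control and 14, 11 and 23 in PB, and H2afy3 had 7, 22 and 22 in control and 17, 31 and 15 in PB. H2afb2 had 0 counts in every pool, and H2afb3 had at most 3 counts in a pool. A count of 0 allows up to 3 counts, or 0.0257 to 0.0319 CPM, and intervals of this kind cover counting error only.

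Genes that act on histones or in S phase were set beside the RD genes. Of 16 genes for histone mRNA production and end processing, 0 were called, 4 had a log2 fold change below 0, and the median was 0.01. Slbp, the stem-loop binding protein, was at 139, 137 and 130 CPM in control (129.6 in control 3) and 139, 128 and 139.8 in PB. Npat, the coactivator of histone gene transcription, was at 74.3, 72.9 and 75.5 in control and 90.8, 69.0 and 90.7 in PB, with PB 2 apart from the other PB pools (0.17 ± 0.11). Of 28 histone chaperones and deposition factors, 0 were called, 14 were below 0, and the median was -0.001. Of 6 histone-like genes outside the rule for names, 0 were called, 1 was below 0, and the median was 0.32. The 1 below 0 was Cenpa, at 51.1, 56.9 and 48.9 CPM in control and 45.3, 49.3 and 47.1 in PB (-0.15 ± 0.07). The other 5, Hils1, Tnp1, Tnp2, Prm1 and Prm2, were low, at 0.403 to 7.44 CPM. Relative to the control means, the median of the list was -0.24, 0.01 and 0.86 in PB 1, 2 and 3, so only PB 3 stood clearly higher. Of 24 S-phase genes, 0 were called, 19 were below 0, and the median was -0.09. Their sum was 3243, 3644 and 3280 CPM in control and 3251, 3457 and 3048 in PB, so pool 2 was the highest of each group, as for RD genes.

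Summed marker genes of several cell types are given beside the RD values. The sum of 10 germ cell markers was 1016, 804 and 1001 CPM in control and 1137, 664 and 1201 in PB, lowest in pool 2 of each group and thus opposite to the RD genes. All 10 were detected. The 2 with an unadjusted p under 0.05 in edgeR were both lower in PB, against 2.43% of all genes lower at that level. Kit, a receptor of germ cells, was at 55.1, 51.8 and 53.3 in control and 43.2, 46.9 and 41.1 in PB (-0.29 ± 0.06), and Dppa3 was at 20.1, 11.9 and 21.6 in control and 12.2, 12.5 and 12.8 in PB (-0.52 ± 0.21). Sycp3, of the meiotic chromosome axis, had the highest fold change of the list (0.34 ± 0.28) and was at 118, 111 and 116 in control and 172, 81.2 and 184 in PB. The log2 fold change was below 0 in 6 of the 10, and none was called. The sum of 6 red blood cell markers ran from 14795 to 31758 CPM in control and from 18138 to 19968 in PB. Pregranulosa markers, 8 genes, summed to 1174 to 1275 CPM in control and 1118 to 1226 in PB. Sertoli markers summed to 59.8 to 68.5 in control and 58.0 to 59.3 in PB, and markers of mesonephros and epithelium to 296 to 362 and 339 to 416. The 5 Leydig and steroidogenic markers summed to 55.9 to 61.9 in control and 32.0 to 60.6 in PB. Of these, Hsd3b1 was at 14.8 in PB 1 and 39.0 to 45.6 in the other pools (-0.41 ± 0.37). The other 4 had a log2 fold change above 0, and the median of the list was 0.11. In these other lists, Runx1 (pregranulosa, 0.15 ± 0.06) was higher at an unadjusted p under 0.05 in edgeR, against 2.03% of all genes. Dmrt1 (Sertoli, -0.52 ± 0.20) and Hba-a2 (red blood cell, -0.77 ± 0.28) were lower at that level, against 2.43%. All 6 red blood cell markers had a log2 fold change below 0, and none of these genes was called. The part of cell makeup in the RD values was not tested.

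A list of 5 RNAs that are made without a poly(A) tail was chosen after values had been seen, so it is no independent evidence of a direction. Its sum was 779, 829.7 and 847 CPM in control and 647, 738 and 625 in PB, and the median log2 fold change was -0.30. In 4 of the 5 the groups did not overlap, against 5.62% of all genes, and in Rpph1 they did. Rn7sk, an RNA that holds the elongation factor P-TEFb inactive, was at 340.0, 375 and 379 in control and 297, 321 and 302 in PB (-0.25 ± 0.06). Rmrp, the RNA of a mitochondrial and nucleolar RNase, was at 71.7, 70.8 and 74.5 in control and 51.7, 60.5 and 51.3 in PB (-0.41 ± 0.08). None of the 5 was called, with an FDR of 0.888 in edgeR. Whether libraries differed in how much RNA without a tail they kept was not tested, and such a difference cannot be told apart from a change in the RNAs themselves.

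**Figure D4:**
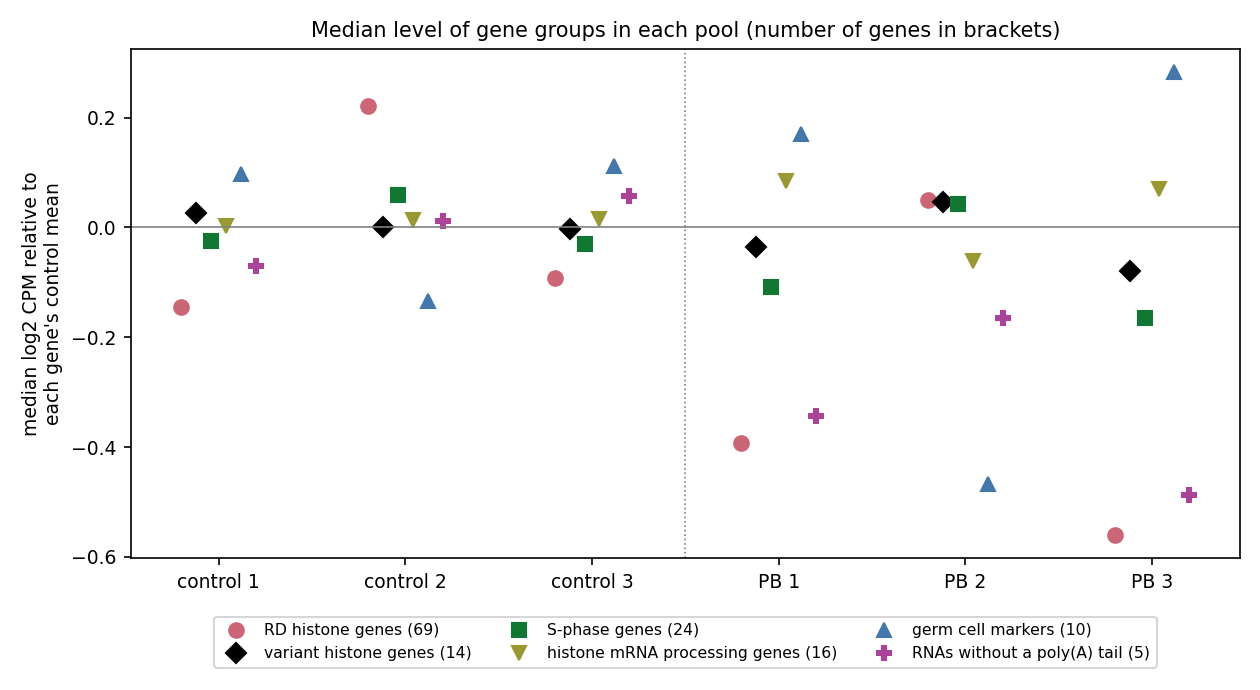
Median log2 CPM of each gene group in each pool, relative to each gene's mean over the controls, for RD and variant histone genes and 4 other lists. The RD median runs from -0.15 to 0.22 in control and is -0.39, 0.05 and -0.56 in PB 1, 2 and 3, while variants lie between -0.08 and 0.05 in all pools.

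At the level of transcripts, 110 of the 131 histone transcripts were tested and edgeR called 0, against 0.0332% of all transcripts. At an unadjusted p under 0.05, 6 passed (5.45%), against 3.56% of all transcripts. DESeq2 called 1, against 1.85% of all transcripts. Reads at a locus were shared out among its transcripts by the assembler, and the biological coefficient of variation was 98.4% for transcripts and 20.95% for genes. Of the 69 RD genes, 55 had a single transcript.

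The transcript that DESeq2 called was an assembled form of Hist3h2a, MSTRG.2535.1. It had 6, 14 and 16 counts in control and 11, 1895 and 1830 in PB, with a log2 fold change of 6.61 (DESeq2 FDR 0.0012, edgeR FDR 1.0). This form starts at the annotated gene (chr11:58954685-58957996) and runs on past its end at 58955192. The annotated form NM_178218.4 had 1475, 1835 and 1413 counts in control and 1357, 609 and 444 in PB, so the counts of PB 2 and PB 3 lay mostly on the longer form. In PB 1 they lay on the annotated form, as in control. The gene sum was higher in PB 2 and PB 3, at 24.5 and 19.6 CPM, than in the other 4 pools, at 13.8 to 15.9 CPM. Per kilobase the order was the opposite, with 29.6, 31.0 and 29.6 in control and 27.0, 21.7 and 16 in PB. On annotated transcripts alone, the log2 fold change was -0.96 instead of 0.33 ± 0.19.

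**Figure D5:**
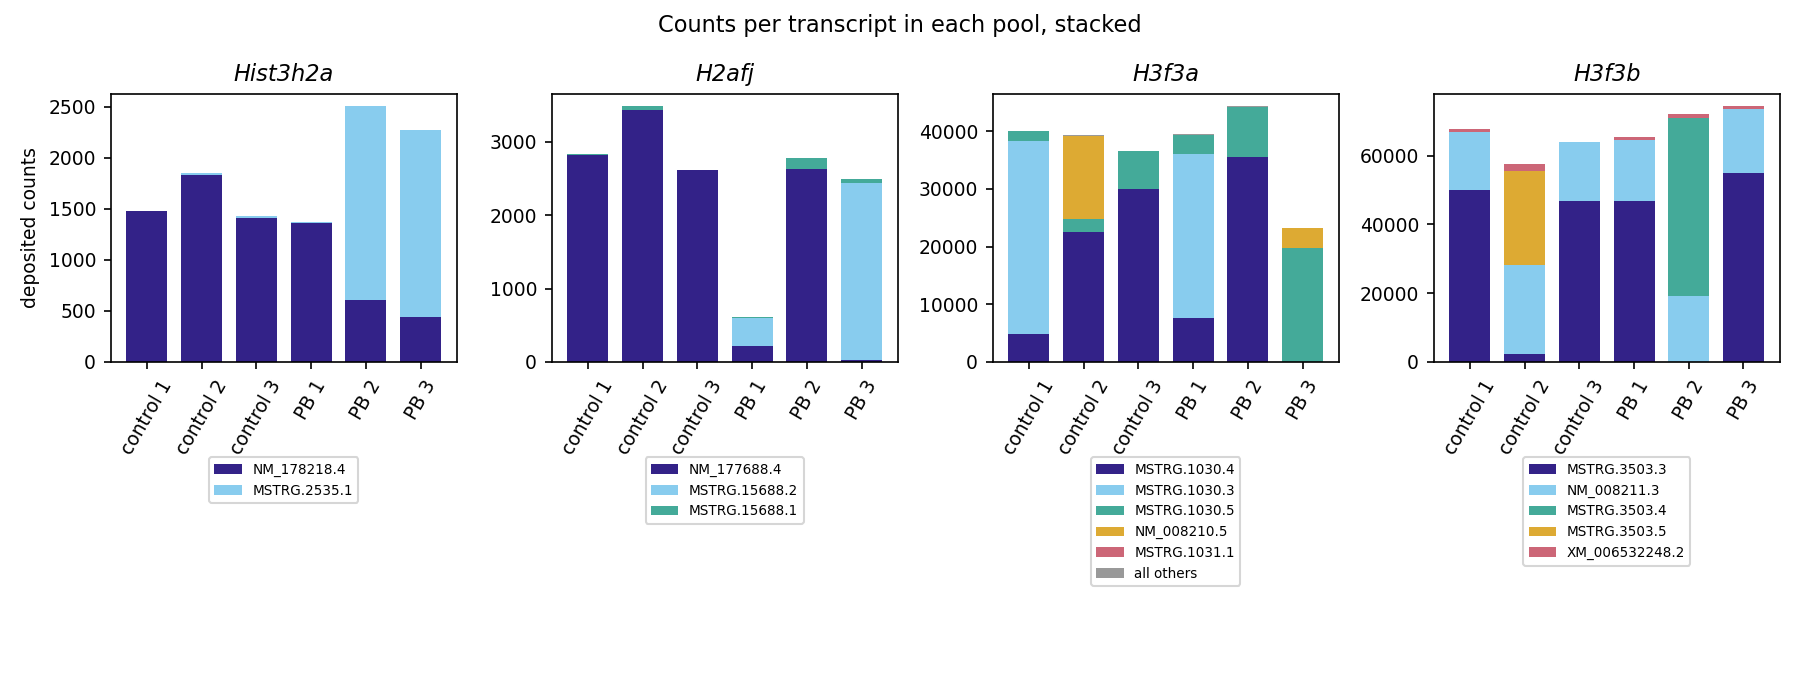
Deposited counts of Hist3h2a, H2afj, H3f3a and H3f3b in each pool, stacked by transcript. The division changes from pool to pool also within a group, and the gene total is low for H2afj in PB 1 (619 counts) and for H3f3a in PB 3 (23254 counts).

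Such shifts were seen in variants too, in transcripts that were in part chosen after their values were seen. For H2afj, the annotated NM_177688.4 had 2819, 3427 and 2613 counts in control and 218, 2633 and 20 in PB, and MSTRG.15688.2 had 0 in all control pools and 379, 0 and 2415 in PB. For H3f3a, counts lay mainly on MSTRG.1030.3 in control 1 and PB 1, on MSTRG.1030.4 in control 2, control 3 and PB 2, and on MSTRG.1030.5 in PB 3. MSTRG.1030.5 had one of the 3 smallest p-values among transcripts with a fold change above 0, with 1718, 2294 and 6593 counts in control and 3354, 8722 and 19697 in PB (1.44). Sums over the transcripts of a gene are less sensitive to this division, although they do not remove it.

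Among lower transcripts, Hist1h3e in its annotated form had 1364, 1881 and 1256 counts in control and 983, 1254 and 1010 in PB (-0.49). MSTRG.4605.1, an assembled form that reaches from Hist1h3e to Hist1h3c, had 57, 151 and 96 counts in control and 21, 50 and 49 in PB (-1.36). None was called.

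H2afy showed 2 annotated transcripts with opposite values. Their models differ in 1 exon on chromosome 13, which spans 56096124 to 56096234 in one and to 56096231 in the other, 3 bases shorter. The longer form, XM_006517257.3, had 172, 199 and 289 counts in control and 393, 502 and 514 in PB. The shorter form, XM_006517258.3, had 442, 481 and 422 in control and 263, 316 and 343 in PB. Neither pair of groups overlapped, and the log2 fold changes were 1.03 and -0.59, with an edgeR FDR of 1.0 for both and a DESeq2 FDR of 0.12 and 0.0006. The longer form made up 28.0%, 29.3% and 40.6% of the pair in control and 59.9%, 61.4% and 59.98% in PB. The same 3 bases distinguish a more abundant pair, NM_012015.2 and NM_001159513.1. There the longer form made up 44.1%, 42.5% and 44.4% in control and 43.0%, 45.2% and 42.5% in PB, so the groups overlapped. In some forms the exon at 56088252 to 56088342 takes the place of the exon at 56089758 to 56089857. Among the NM forms of H2afy, those with it held 15.98%, 17.6% and 17.1% of counts in control and 16.4%, 16.5% and 14.6% in PB. The other forms of H2afy were left out of these shares.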

How the data were processed

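The authors aligned stranded paired-end reads to mm10 with HISAT2 2.1.0, assembled transcripts with StringTie 1.3.5 on RefSeq and deposited raw counts per transcript, which prepDE derives from coverage. The deposited comparison also holds the authors' DESeq2 1.30.0 fold changes and p-values and 6 columns of normalized values, none of which was used. That comparison and the merged annotation gave names and positions. Transcripts without a gene name, 3.05% to 4.49% of counts, were left out of gene sums.

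Counts were summed per gene and tested with edgeR 4.0.16 (R 4.3.3, limma 3.58.1) over all genes, with TMM, filterByExpr (minimum count 10, minimum total 15) and the quasi-likelihood F-test. The standard error is the log2 fold change divided by the square root of F. CPM used the TMM library sizes. DESeq2 1.42.0 was an alternative. The scripts were tested on simulated data. The pools are described as biological replicates, and p-values measure the spread between them.

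The members, lists and tests were chosen with earlier results of these data known. Named are the 5 highest genes and the 3 with the smallest p per direction in each class, genes noted for their biology, and the transcripts with the smallest p. Alternatives were other size factors, other filters, DESeq2, a replicate block, annotated transcripts only, no fold threshold and leaving out pools. Scripts used Python 3.11.15, pandas 2.3.3, numpy 2.4.6 and matplotlib 3.10.9.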

Additional observations from a re-analysis of the deposited data

How the results depend on the processing

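No histone gene was called under any gene-level alternative, and RD genes kept a median log2 fold change below 0 in each, from -0.50 without PB 2 to -0.15 without control 2. The number of RD genes that were lower at an unadjusted p under 0.05 was 6, against 2.43% of all genes, and 12 with DESeq2, against 2.04%. When 1 pool was left out, the number was 3 to 46. For these fits the share of all genes was computed only without PB 2 (4.9%) and without control 2 (2.08%). Without both pools 2, a setting added after the data were seen, the number was 39, against 4.47% of all genes. For variants, beside the same shares of all genes, this number was 0, with 0 to 2 when 1 pool was left out and 2 without both pools 2. Without both pools 2, 11 variants lay below 0, the variant median was -0.07 and the variant sum differed by -0.15 in log2. With 1 pool left out, the variant median ran from -0.083 to 0.025, the number of variants below 0 from 7 to 10 and the variant sum from -0.095 to 0.045. DESeq2 called 1 histone transcript where edgeR called 0. With a replicate block, 37 RD genes (3.32% of all genes) and 1 variant were lower at an unadjusted p under 0.05. Deviations of same-numbered pools correlated at 0.100, 0.224 and 0.036. Pools with different numbers were not compared, so these values cannot decide whether the numbers pair the pools. The block was used as an alternative only. Of 26 named genes, 15 kept their sign in every setting. On annotated transcripts alone, H3f3b was at -0.12 and Hist3h2a at -0.96. Hist2h2be was at -0.0017 without a filter and at -0.00065 with DESeq2, and Hist3h2bb-ps at -0.11 with the replicate block. Leaving out 1 pool or both pools 2 gave ranges that crossed 0 for H1f0 (-0.084 to 0.0063), H1fx (-0.015 to 0.060), H2afy2 (-0.0050 to 0.068), H3f3a (-0.41 to 0.14), H3f3b (-0.072 to 0.19), Hist1h1t (-0.30 to 0.090), Hist1h2ap (-0.37 to 0.037), Hist1h2ba (-0.22 to 0.18), Hist2h2be (-0.079 to 0.061) and Hist3h2bb-ps (-0.51 to 0.35). Values that kept their sign but moved by over 1.5 times included those of Hist1h1c (-0.64 without PB 2, -0.15 without control 2), Hist1h1e (-0.37 without PB 2), Hist1h2bc (-0.38 without PB 2, -0.085 without control 2), Hist1h2aa (-0.46 without PB 3, -0.041 without PB 2), Hist1h4d (-0.18 without control 2), Hist3h2a (0.51 without PB 1, 0.12 without PB 2), H2afz (-0.17 without PB 2), H2afx (-0.17 without PB 2) and H2afy (-0.082 without PB 2). The causes were not tested.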
